A study of Drosophila melanogaster with 2 samples.

Results

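The 8 genes of the Drosophila melanogaster Sox family were D (Dichaete), SoxN, Sox21a, Sox21b, Sox14, Sox15, Sox100B and Sox102F. They were taken by symbol from 13945 protein-coding genes on the 6 major chromosome arms. Each was examined over its gene body and 10 kb on either side for the summits of vvl-eGFP peaks, and 15 distinct summits of 8309 in the conservative peak list of the series fell in these 8 windows. The peaks came from chromatin immunoprecipitation and sequencing (ChIP-seq). The sample descriptions name an antibody against GFP, while the antibody field of the labels names vvl, the target. The material was whole embryos, 0 to 24 h old, of a vvl-GFP strain that expresses the POU-domain factor vvl (ventral veins lacking) fused to eGFP. All embryos were of this 1 genotype and age range, in 2 biological replicates from separate biosamples. No untagged, input or other control sample was analysed here, and the labels, which describe an insertion that targets vvl in transgenic flies, do not say whether it adds a copy of the gene or tags the resident one. Whole embryos mix all tissues, so binding in few cells and weak binding in many cannot be told apart.

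Sox proteins bind DNA through an HMG box, which bends the double helix, and they often work beside a second factor on a neighbouring site. Pairing with POU proteins is the best known case, as with Sox2 and Oct4 in mammalian stem cells. In the fly embryo, D acts together with vvl and with the Sim and Tango proteins in the midline of the nerve cord, where slit is a known target. D and SoxN are expressed early and widely in the neuroectoderm, where they overlap in function. Sox21a and Sox21b are their relatives next to D on the same arm, and Sox21a is known from the stem cells of the adult gut. Sox14 is induced by ecdysone and acts in neuron remodelling at metamorphosis, Sox15 acts in the wing and in sensory organs, Sox100B in the gonad and Sox102F in neurons.

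The sequence around 5 summits is shown because results at D, SoxN, Sox21a, Sox21b and Sox102F turn on them. They are a D and a SoxN summit with the octamer ATGCAAAT, the site that POU proteins bind, the conservative summit of D, the one that Sox21a and Sox21b share, and the summit of Sox102F. Each is the plus strand of the Release 6 assembly (dm6), 100 bp on either side of the summit, outside all annotated exons. Capitals mark every match, on either strand, to a searched word. These are the octamer and its variant ATGCTAAT, ACAATG of the Sox factors and GAGAGAG of the GAGA factor. The others are ACACTG, its relative ACAGTG, and the GC-rich word TGGCGC.
D, broader list, with the octamer, chr3L:14170149-14170349: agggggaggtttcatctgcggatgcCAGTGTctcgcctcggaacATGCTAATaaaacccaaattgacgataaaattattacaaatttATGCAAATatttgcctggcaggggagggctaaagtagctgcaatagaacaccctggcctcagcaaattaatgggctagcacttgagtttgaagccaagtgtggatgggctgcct
SoxN, broader list, with the octamer, chr2L:8830974-8831174: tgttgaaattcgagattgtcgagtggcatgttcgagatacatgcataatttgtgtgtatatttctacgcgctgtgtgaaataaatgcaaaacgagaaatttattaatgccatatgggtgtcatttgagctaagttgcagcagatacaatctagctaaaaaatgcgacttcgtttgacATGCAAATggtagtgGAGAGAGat
D, conservative list, chr3L:14166355-14166555: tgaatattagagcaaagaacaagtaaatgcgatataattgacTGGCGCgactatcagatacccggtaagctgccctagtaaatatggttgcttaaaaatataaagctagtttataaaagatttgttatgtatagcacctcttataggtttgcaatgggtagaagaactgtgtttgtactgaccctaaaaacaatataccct
Sox21a and Sox21b, conservative list, shared, chr3L:14111511-14111711: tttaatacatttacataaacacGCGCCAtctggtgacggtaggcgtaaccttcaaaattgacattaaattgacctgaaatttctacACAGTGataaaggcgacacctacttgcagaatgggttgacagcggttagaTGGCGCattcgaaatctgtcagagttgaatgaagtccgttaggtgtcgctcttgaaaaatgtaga
Sox102F, broader list, chr4:835446-835646: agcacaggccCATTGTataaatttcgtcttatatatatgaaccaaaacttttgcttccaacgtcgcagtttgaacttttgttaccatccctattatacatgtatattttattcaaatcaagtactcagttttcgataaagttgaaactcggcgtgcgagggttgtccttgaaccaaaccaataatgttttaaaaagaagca
At the D summit the octamer began 13 bp before the summit, with ATGCTAAT starting 56 bp before it. At the SoxN summit the octamer began 77 bp after it. The 2 conservative windows of this set hold none of the POU or Sox words.

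A summit is the base at which a peak is highest, and signal is the strength the authors gave each peak, in a unit not stated. The series has a conservative list, used throughout unless another is named, and a broader list of 11692 peaks, and each replicate has a list of its own. These lists hold the peaks past the authors' threshold, an irreproducible discovery rate of 0.01, and a longer ranked list goes with each. No list gives read counts, so the depth behind a peak is unknown.

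A summit was found at 7 of the 8 Sox genes, or 87.5% (exact 95% interval 47.3 to 99.7), against 74.0% of all protein-coding genes. With 1 gene of 8 lacking a summit, the share at Sox genes was near the background. In the broader list it was all 8 (80.4% of all genes), in the list of replicate 1 all 8 (73.9%) and in that of replicate 2 again 7 (73.6%). Within 2 kb of the gene body 5 Sox genes had a summit (47.0% of all genes), and inside the gene body 1 did (17.4%). D, Sox21a, Sox21b and Sox14 had 1 summit each, SoxN had 2, Sox15 and Sox100B had 5 each, and Sox102F had 0. The median was 1 at Sox genes and 2 over all protein-coding genes, and per 10 kb of window it was 0.42 at Sox genes and 0.756 over all genes. Sox21a and Sox21b shared their single summit. Over the 244.4 kb that the windows cover, there were 0.614 summits per 10 kb, against 0.621 per 10 kb over the 6 arms.

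**Figure D1:**
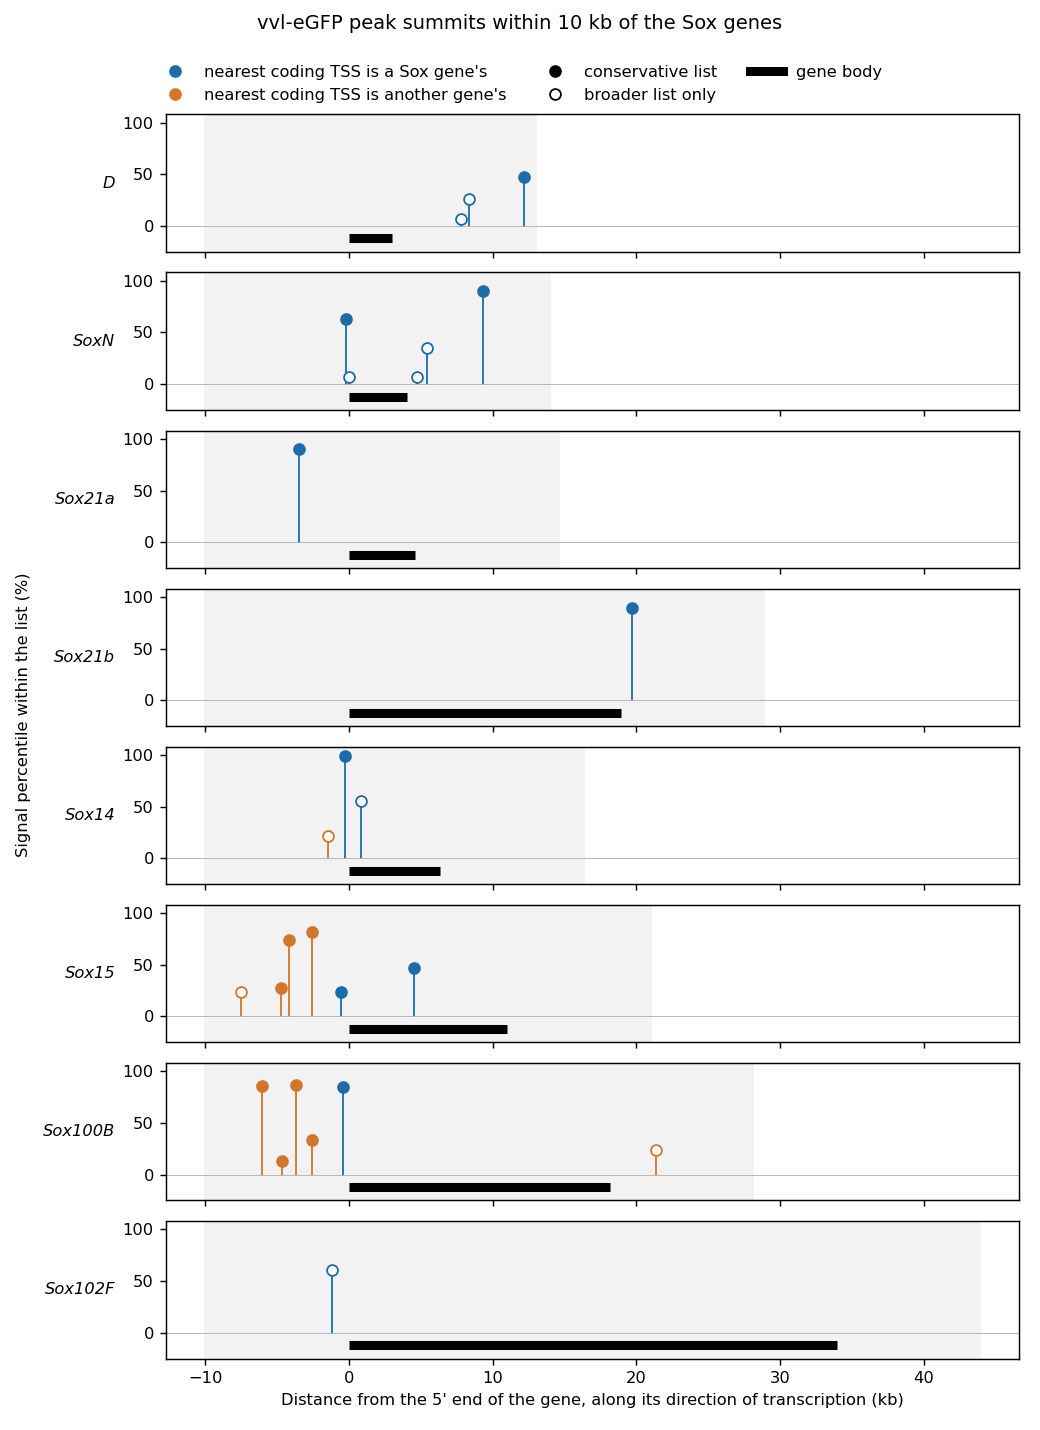
Summits within 10 kb of each Sox gene (grey) by distance from the gene's 5' end in kb, with height as the percentile of signal within the list in percent. Filled points are summits of the conservative list and open points those of the broader list alone, and the black bar is the gene body. The tallest stands at the Sox14 promoter, and the points in orange, at Sox14, Sox15 and Sox100B, lie nearest to the start of another coding gene.

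The windows differ in length, so each gene was also set beside genes of like window length. No Sox window was under 22 kb (65.8% of such genes had a summit) or over 60 kb (80.7%). Of 3944 genes with a window of 22 to 25 kb, 79.6% had at least 1 summit, as D and Sox21a did, and 58.8% had at least 2, as SoxN did. For windows of 25 to 35 kb, 83.9% of 2125 genes had at least 1, as Sox14 did, and 19.3% had at least the 5 of Sox15. For windows of 35 to 60 kb, 82.4% of 898 genes had at least 1, as Sox21b did, 32.2% had at least the 5 of Sox100B and 17.6% had none, as Sox102F. The class medians were 2 in the classes from 22 to 25 kb and from 25 to 35 kb, and 3 in the class from 35 to 60 kb. Sox15 and Sox100B thus stood above their class median, SoxN at it, and the other 5 genes below it. Window counts include summits nearest to other genes. Of the 5 summits in each window, 2 at Sox15 and 1 at Sox100B were nearest to the gene's own TSS.

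**Figure D2:**
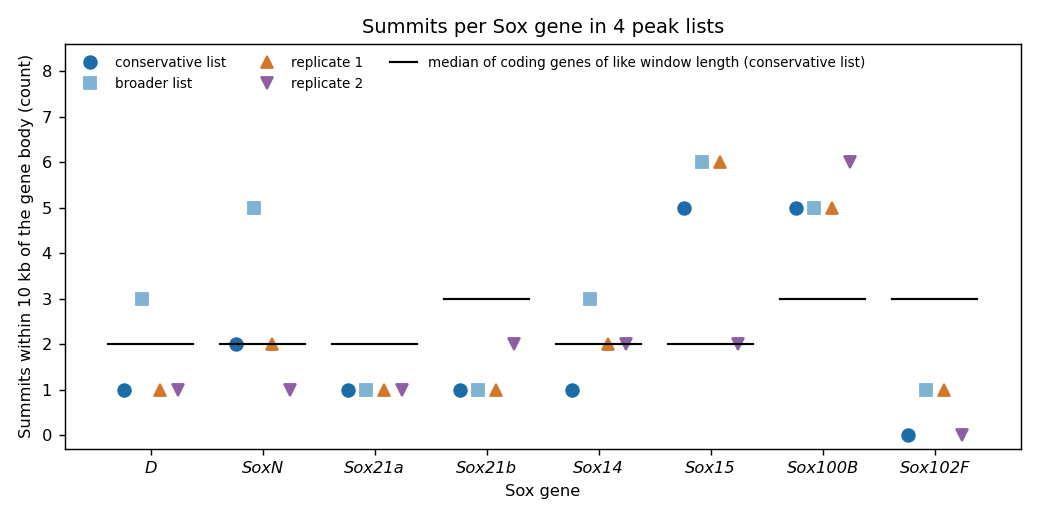
Number of summits within 10 kb of each Sox gene in the conservative list, the broader list and the thresholded list of each replicate (1 point per list). Black bars give the median over protein-coding genes of like window length in the conservative list. Sox15 has 6 summits in replicate 1 and 2 in replicate 2, while Sox100B has 5 and 6.

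The signal of the 15 summits, in the authors' own unit per peak, ran from 88.4 to 1165.8 with a median of 215.6, against a median of 141.3 for all conservative peaks. Their ranks by signal ran from 79 to 7213 of 8309, and 9 of the 15 were above the median signal of the list. The median percentile of the Sox summits was 74.4. It was 58.9 among the 18 Sox summits in the list of replicate 1, and 76.5 among the 14 in that of replicate 2. The lists hold partly different summits, so these medians do not compare the same sites. Promoters, taken as 500 bp to each side of a transcription start site (TSS), held 7 of the 15, against 45.9% of all conservative summits. Intergenic sequence held 6, against 14.9% of all summits, and introns 2, against 36.2%. These differences in location were not tested.

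D (FBgn0000411, 3L:14175610-14178620 in dm6, minus strand) encodes a Sox protein of the early embryo, the midline and the hindgut. Its conservative summit, at 3L:14166257-14166652, was intergenic and lay 9.15 kb beyond the 3' end of the gene. The signal was 65.9 in replicate 1 and 62.0 in replicate 2, close to each other, and 136.2 in the series, rank 4376. It passed the authors' threshold in replicate 2 and not in replicate 1. The broader list adds 2 summits between this one and the gene. The stronger of these carries the octamer, with a signal of 71.2 in replicate 1 and no summit within 100 bp in replicate 2. The other had 32.0 in replicate 1 and 30.7 in replicate 2, with the Sox word ACAATG within 100 bp. No summit of either list lay at the D promoter or in the 7.63 kb between D and its upstream neighbour nan.

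The 44.3 kb downstream of D, up to Sox21b, held 1 further conservative summit beyond the 10 kb window. It lay at 3L:14157973-14158368, 17.4 kb beyond the 3' end of D, with a signal of 238.3 and rank 1791. This summit was in the thresholded lists of both replicates, with 174.1 in replicate 1 and 57.3 in replicate 2. It was stronger than the one within 10 kb in the series and in replicate 1, and weaker in replicate 2. The Zelda word CAGGTAG lay within 100 bp of it, a word near 0.746% of all conservative summits.

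SoxN (FBgn0029123, 2L:8825645-8829670, plus strand), which shares functions with D in forming neuroblasts, had 2 conservative summits. The first was at the promoter, 177 bp upstream of the TSS at 2L:8825270-8825665, with a signal of 172.5 and rank 3071. Its signal was 128.9 in replicate 1, and replicate 2 had no summit within 100 bp, even in its ranked list. A weaker summit of the broader list, 24 bp downstream of the TSS, had 32.7 in replicate 1 and 36.5 in replicate 2. The second conservative summit was intergenic and lay downstream of the gene, with a signal of 362.2 and rank 856. It was in both replicates' lists, with 210.6 in replicate 1 and 147.5 in replicate 2. The broader list had 2 more intergenic summits downstream of the gene, of which the one with the octamer had 62.7 in replicate 1 and 17.8 in replicate 2. The other had 43.4 in replicate 1 and 26.6 in replicate 2.

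SoxN lies alone in a gap of 80.3 kb between coding genes, and the gap held 7 conservative summits, 0.872 per 10 kb. Of these, 6 were downstream of the gene and 1 was the promoter summit, and the 43.1 kb upstream held no other. The 5 summits beyond 10 kb lay 11.2 to 31.3 kb past the 3' end, all intergenic, with signals of 120.4 to 315.0. The strongest of them, at 2L:8840764-8841034, had 229.1 in replicate 1 and 87.0 in replicate 2, so replicate 1 was the higher. In both replicates' thresholded lists there were 3 of the 5. The octamer was near 0 of the 5. None of the 5 had SoxN as its nearest TSS: 3 were nearest to lncRNA:CR45365, a noncoding RNA, and 2 to CG32986. Among coding genes, SoxN was nearest to 1 of the 5, the strongest, and CG32986 to the other 4.

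**Figure D3:**
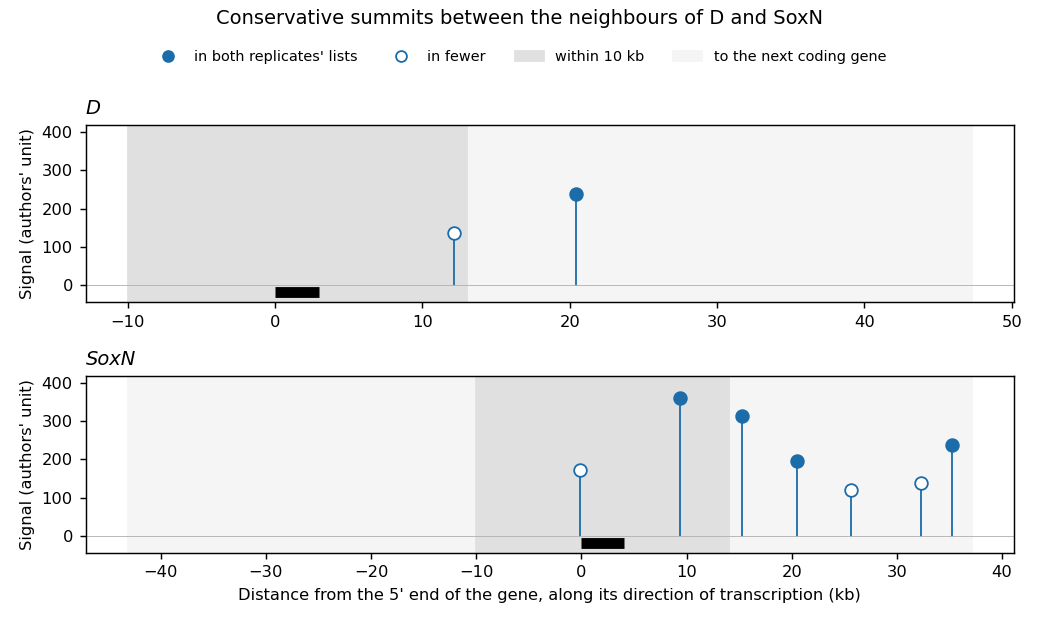
Conservative summits across the whole gap between coding genes (light grey) around D and SoxN, with the 10 kb window in darker grey and the gene body in black. The axes are the distance from the gene's 5' end in kb and the signal in the authors' unit. Filled points are in both replicates' thresholded lists, and all summits of D and all but the promoter summit of SoxN lie downstream of the gene.

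Sox21a (FBgn0036411, 3L:14103481-14108118) and Sox21b (FBgn0042630, 3L:14112405-14131324) lie side by side on the minus strand, and their windows overlap. Their shared summit was at 3L:14111441-14111732, in the sequence between the genes, 3.49 kb upstream of the Sox21a TSS and 794 bp past the 3' end of Sox21b. The nearest Sox21b TSS lay 19.7 kb away, so the summit was nearest to the TSS of Sox21a. The shared summit had a signal of 186.6 in replicate 1 and 204.6 in replicate 2, and 361.8 in the series, rank 857. Both replicates ranked it high, at 1039 of 9050 and 569 of 7098 thresholded peaks. Replicate 2 also had a weak peak 531 bp upstream of the Sox21b TSS, with a signal of 52.2, which was in neither list of the series. The broader list added no summit to either gene.

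Sox14 (FBgn0005612, 2R:23978801-23985177, plus strand), of the ecdysone response, had the strongest summit of the family, in the promoter at 2R:23978392-23978714, 249 bp upstream of a Sox14 TSS. Its signal was 482.4 in replicate 1 and 660.9 in replicate 2, and 1165.8 in the series, rank 79 of 8309. Both replicates placed it near the top, at 135 of 9050 and 48 of 7098. Of the 10323 protein-coding genes with a summit, 399, or 3.87%, had one at least as strong, Sox14 included. A summit counts here for every gene within 10 kb of it, so these genes outnumber the summits. None of the 12 words first searched for lay within 100 bp of it. The broader list had another Sox14 promoter summit, 228 bp upstream of an alternative TSS, with 82.0 in replicate 1 and 12.1 in replicate 2. Another summit of the broader list, 72 bp upstream of the TSS of the neighbour PPP1R15, had 36.5 in replicate 1 and 57.4 in replicate 2.

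Sox15 (FBgn0005613, 2R:14201390-14212413, minus strand), which acts in the wing and in sensory organs, had 5 conservative summits, of which 2 were nearest to its own TSS. One was in its intron at 2R:14207668-14208063, the single summit of the 15 that lay inside a Sox gene, with 96.5 in replicate 1 and 50.4 in replicate 2. The other, 576 bp upstream of the TSS at 2R:14212791-14213186, was the only one of the 15 with the octamer, and it also carried the palindrome ATGCATAT. Its signal was 85.1 in the ranked list of replicate 1, whose thresholded list leaves it out, and replicate 2 had no summit within 100 bp. In the series it had 101.4 and rank 6371.

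The other 3 Sox15 summits lay upstream, near the ribosomal protein gene RpS23. The strongest of the window had 175.4 in replicate 1 and 96.3 in replicate 2, and carried CAGGTAG. It was 1608 bp from an RpS23 TSS, the closest of a coding gene. A noncoding RNA with no gene symbol starts closer to it, 853 bp away. A summit 18 bp upstream of the same RpS23 TSS had 96.0 in replicate 1 and 129.7 in replicate 2. It held GGTCACAC, the word of the promoter factor M1BP. The last, 492 bp upstream of another RpS23 TSS, had 73.1 in replicate 1 and 42.8 in replicate 2, with the Sox word ACAAAG. Sox15 had 6 summits in the list of replicate 1 against 2 in the other list, and those 2 were the first 2 RpS23 summits given here. The broader list adds 1 summit, 5 bp downstream of the TSS of CG8468, with 66.5 in replicate 1 and 27.2 in replicate 2.

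Sox100B (FBgn0024288, 3R:31065253-31083407, plus strand), the family member of the gonad, had 1 summit at its own promoter. Its signal was 158.3 in replicate 1 and 131.4 in replicate 2, and 286.4 in the series, rank 1284. It was in both replicates' lists. The other 4 summits lay upstream and were nearest to dco, which encodes a casein kinase. The strongest lay 340 bp upstream of a dco TSS, at 3R:31061449-31061636, with 104.3 in replicate 1 and 200.7 in replicate 2. This was the largest lead of replicate 2 among the 12 Sox summits that both ranked lists held. A summit in the dco intron had 167.5 in replicate 1 and 141.6 in replicate 2. The weaker 2, with series signals of 114.9 and 88.4, lay 1480 bp upstream and 174 bp downstream of the nearest dco TSS. That nearest start site was not the same for each of these summits. The weakest had no summit within 100 bp in replicate 2. Replicate 2 had 2 peaks at the dco promoter, with 55.5 and 45.1, that overlap this weakest peak. Neither has a summit of the series lists within 100 bp. The weakest is also the single one of the 15 that the broader list leaves out. That list adds 1 summit 3.24 kb beyond the 3' end of Sox100B, nearest to CG11317, with no summit within 100 bp in replicate 1 and 21.6 in replicate 2.

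Sox102F (FBgn0039938, 4:800436-834393, minus strand), a neuronal Sox gene, lies on chromosome 4, which is small and largely heterochromatic. It had no conservative summit, and 0 peaks of the 81948 in the matching ranked list fell in its window, against a median of 21 per protein-coding gene. Peaks were few on the whole chromosome, where 13 of the conservative list lay and 15 of 80 protein-coding genes (18.8%) had a summit within 10 kb. The broader list had 1 summit 1153 bp upstream of a Sox102F TSS, at 4:835348-835743, with a signal of 135.6. Replicate 1 held it with a signal of 95.4, and replicate 2 had no peak in the window, ranked list included. In the broader list 28.8% of the genes of chromosome 4 had a summit.

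Both replicates' thresholded lists held 9 of the 15 summits within 100 bp (exact 95% interval 32.3% to 83.7%), against 56.3% of all conservative summits. Another 4 were in the list of replicate 1 alone, 1 was in that of replicate 2 alone and 1 was in neither. The 9 were the second SoxN summit, the one between Sox21a and Sox21b, the Sox14 promoter, 2 by RpS23, the Sox100B promoter and 3 by dco. In the 12 summits with a counterpart in both ranked lists, signal was higher in replicate 1 in 8 and higher in replicate 2 in 4. The median log2 ratio of replicate 1 to replicate 2 was 0.17, with a range from -0.94 to 0.94, and 0.48 over 7297 conservative peaks. The intervals treat each peak or gene as 1 count and leave out the spread between animals or libraries. In the interval over genes, Sox21a and Sox21b count separately though they share 1 summit.

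**Figure D4:**
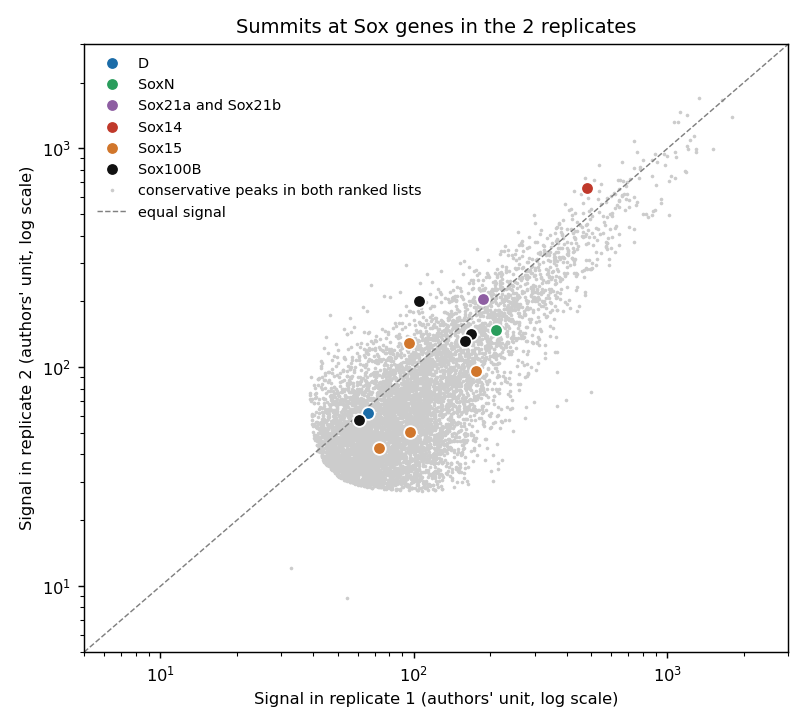
Signal in replicate 1 against replicate 2 (authors' unit, log scales) for the 12 Sox summits with a counterpart within 100 bp in both ranked lists (coloured by gene) and for the 7297 conservative peaks that have one too (grey). The dashed line marks equal signal. The Sox14 promoter stands highest, with 482.4 in replicate 1 and 660.9 in replicate 2, and the Sox100B point farthest above the line is the dco promoter summit.

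The share of Sox summits with the octamer was near that of all summits, but it rests on 1 summit and its interval is wide. It lay within 100 bp of 1 of the 15, or 6.67% (exact 95% interval 0.169 to 31.9), against 6.68% of all 8309. With 1 mismatch allowed it was near 10 of the 15, against 40.6% of all. ATGCTAAT was near 0 of the 15 (2.64% of all) and the palindrome ATGCATAT near 1 (2.56%), which was the summit with the octamer. Any of these 3 POU words was thus near 1 (11.3% of all), as was the POU core TGCAAAT (10.4%), which every octamer contains.

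Of the Sox words, ACAATG was near 0 of the 15 (10.6% of all) and ACAAAG near 2 (13.5%), so that either was near 2 (22.8%). A Sox word within 15 bp of the POU core was near 0, against 0.505% of all summits. Words of other factors were near few Sox summits too. TAATTA, of homeodomain factors, was near 1 (15.6% of all), GGTCACAC near 1 (3.02%) and CAGGTAG near 1 (0.746%), while GAGAGAG was near 0 (5.98%) and the promoter word TATCGATA near 0 (3.8%). A shuffled octamer, AACATGTA, was near 0 (0.915%). With 15 summits these shares are imprecise, and the differences from the whole list were not tested.

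A further set of words was searched for after the data had been seen. ACACTG was near 3 of the 15 Sox summits (17.5% of all) and ACAGTG near 3 (16.5%), so that either was near 5 (29.1%). TGGCGC was near 4 (9.33% of all), and it occurred 2 or more times near 3 of them (1.73%). These 3 were the Sox14 promoter, with 2 copies, the summit between Sox21a and Sox21b, with 2, and the dco promoter summit in the Sox100B window, with 3. They are among the 4 strongest Sox summits. Because the word was picked from these summits, its count there is a description and was not tested.

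The 8 windows together held 32 octamers in their sequence, and 1 of them (3.12%) lay within 100 bp of a conservative summit, against 2.5% of the 23805 on the 6 arms. With the broader list it was 3 (9.38%), at Sox15, D and SoxN, against 3.82%. Most octamers near Sox genes had no peak: Sox21b had 8 in its window and Sox21a 4, and neither gene had one near a summit. None of the 3 summits with the octamer was in both replicates' thresholded lists, against 303 of the 555 conservative summits with the octamer (54.6%) and 4 of the 317 with it in the broader list alone (1.26%), where 2 of the 3 belong.

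Genes that work with the group B Sox proteins in the embryo were uneven. Of 11 such genes, 6 had a summit within 10 kb, with a median of 2 and 0.202 per 10 kb, beside 74.0% of all protein-coding genes. By count the most summits were at sli, which encodes the midline repellent Slit, with 13 (strongest signal 381.8, rank 759). Its window is long, and per 10 kb it had 1.79. vvl itself, the tagged gene, had 9 (630.7, rank 279), and per 10 kb more than sli, with 3.63. The labels do not say whether the strain carries an added copy of vvl, so these values may not compare with other genes. sim, which encodes the midline factor that pairs with Tango, had 4, or 0.991 per 10 kb (250.3, rank 1637). The octamer was near 2 of the 9 vvl summits, 1 of the 4 at sim and 1 of the 13 at sli. It was near 0 at pros, Dr and tgo, the other genes of this set with a summit. Over all conservative summits the share with the octamer was 6.68%, and the difference was not tested. The strongest at pros, a factor of neuron differentiation with 2 summits, had 592.5 but lay 83 bp from the TSS of its neighbour mgr. No summit was found at vnd and ind, which pattern the neuroectoderm, or at the proneural genes ac, l(1)sc and ase, named here after their values were seen.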

How the data were processed

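Peak calls of 2 ChIP-seq samples in dm6 coordinates were used. Per the deposited text files, the lists of the series derive from the alignments of both replicates, each replicate's lists from its own, and thresholded lists from 1 file more than ranked lists. Neither aligner nor peak caller is given in the sources used here. The authors gave each peak a signal, whose normalization is not stated, and a score of at most 1000. The deposited ranked lists add a −log10 IDR value per peak. IDR, the irreproducible discovery rate, measures how well a peak's rank holds between 2 rankings. The thresholded lists hold ranked peaks at 2 or more. Read depth is unknown. Of the ranked peaks at this level, 184 are not in the conservative list, and 0 of these fell in the Sox windows.

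Summits within the gene body and 10 kb were counted for each gene of Ensembl release 115, with Python 3.11.15 and pandas 2.3.3. Replicates were matched by summits within 100 bp, and a peak's signal in a replicate was read from the nearest such summit in its ranked list. The search for words covered either strand up to 100 bp from a summit. Sequence came from the RefSeq copy of Release 6, whose arm lengths hold all peaks. Counting and word search were tested on simulated data. Values at Sox genes are described beside those of all genes or all peaks, with no test, since 1 group of 2 samples allows none. The 95% intervals are exact (Clopper-Pearson). The text names all members, the genes nearest to their summits, and from each of 3 other lists the 3 genes with the strongest summit and the 3 with the most. Alternatives were the broader list, each replicate alone, the peaks above the median signal, windows of 2 kb or 0, and other matching and word rules. Some sequences and positions are not reported here. The members and lists were chosen with earlier results of these data known.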

Additional observations from a re-analysis of the deposited data

How the results depend on the processing

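The number of Sox genes with a summit stayed between 5 and 8 in each alternative but the gene body alone, which left 1. The number of distinct summits, 15 in the conservative list, was 24 in the broader list, 14 to 18 with either replicate left out, 9 among peaks above the median signal, 6 within 2 kb and 1 in gene bodies. It was 9 without the summits missing from either replicate's list and 17 with flanks up to the next coding gene, both chosen after the data were seen. Summits nearest to a Sox TSS, 8 in the conservative list, were 15 in the broader list, 5 among peaks above the median signal and 1 in gene bodies. Summits with the octamer, 1 in the conservative list, were 3 in the broader list, 0 to 1 with either replicate left out, 0 among peaks above the median signal, 0 in gene bodies, 0 with the word sought within 50 bp and 10 with 1 mismatch allowed. The median signal percentile, 74.4, was 58.0 in the broader list, 58.9 to 76.5 with either replicate left out and 46.7 in gene bodies. The count shared by both replicates, 9, lay between 8 and 12 under other matching rules. Of 48 alternatives for the counts of single genes, 25 moved by over 1.5 times. The 1 octamer summit in the list of replicate 1 is the D summit of the broader list, while the one at Sox15 passed the threshold in neither replicate. No paired analysis was possible because all samples belong to 1 group. Depth is unknown, so summits missing from a list are not shown to be unbound.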

Other observations

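The other HMG-box genes form a looser family outside Sox. All 9 that matched, of 10 symbols, had a summit within 10 kb, with a median of 4 and 1.38 per 10 kb, against medians of 1 and 0.42 at the 8 Sox genes. Of all protein-coding genes 74.0% had a summit, with medians of 2 and 0.756 per 10 kb, and the differences were not tested. cic, which encodes the repressor Capicua, had 13, or 1.83 per 10 kb (strongest signal 464.4, rank 511). HmgD and HmgZ, neighbours that encode abundant chromatin proteins, had 7 each, or 1.98 per 10 kb at HmgD and 2.3 at HmgZ. Their shared strongest summit, 558 bp from the TSS of HmgZ, had 1221.1 and rank 68. bbx had 4, with 539.8 at 220 bp from its own TSS. The single summit at pan, named here after its value was seen, which like Sox102F lies on chromosome 4, had 382.3 and lay 52 bp from the TSS of RpS3A.

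The 4 POU genes besides vvl all had a summit, with a median of 2.5, near the 74.0% and the median of 2 of all protein-coding genes. The strongest was at nub, which encodes a relative of vvl, with 2249.5 and rank 12, 555 bp from its TSS, among 4 summits there. pdm2, its neighbour, had 3 (strongest 263.7), pdm3 had 2 (141.3) and acj6 had 2 (109.8).

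The dco promoter summit in the Sox100B window holds 3 copies of TGGCGC, and its plus strand is shown for them, with the word, read on either strand, in capitals. The stretch runs 100 bp to each side of the summit in the Release 6 assembly (dm6).
Sox100B window, at the dco promoter, chr3R:31061450-31061650: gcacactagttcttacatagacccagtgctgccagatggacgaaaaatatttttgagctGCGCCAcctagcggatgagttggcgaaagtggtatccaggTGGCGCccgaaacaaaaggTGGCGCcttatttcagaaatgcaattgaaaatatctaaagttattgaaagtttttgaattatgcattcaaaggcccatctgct
The copies begin 41 bp and 1 bp before the summit and 18 bp after it.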
